A study of Mus musculus with 144 samples.

Results

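The growth hormone and insulin-like growth factor (IGF) axis was followed in cultured mouse hepatocytes through 9 genes chosen by name, Ghr, Stat5b, Socs2, Igf1, Igfals, Igfbp1, Igfbp2, Igfbp3 and Igfbp4, of 55359 genes counted in each library. All 9 passed the filter on low counts in every comparison. Primary hepatocytes were isolated by collagenase perfusion from male mice aged 28 days. There were 72 libraries of the strain label C57BL/6NCrl and genotype wild-type (WT) and 72 of the strain label Pkm-delta-DRE and genotype DRE-null (PkmΔDRE). PkmΔDRE mice lack the core of an intronic dioxin response element in Pkm, the gene of the muscle pyruvate kinase, and come from 1 CRISPR/Cas9-edited line backcrossed to C57BL/6N. Cells of both labels received the DMSO vehicle or 10 nM TCDD, a dioxin that activates the aryl hydrocarbon receptor (AHR), for 9 durations (2, 4, 8 and 12 h, then every 24 h up to 120 h), with 4 libraries in each of the 36 groups, numbered here as replicates 1 to 4 in accession order. All groups shared a serum-free medium with an insulin, transferrin and selenium supplement and dexamethasone, and growth hormone was not among its listed additions.

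In liver, growth hormone binds its receptor (Ghr), the kinase JAK2 is activated, and STAT5B enters the nucleus and raises the transcription of Igf1, of Igfals, which encodes the acid-labile subunit, and of Socs2, a feedback inhibitor of the receptor. Hepatocytes are the main source of circulating IGF1, which travels in a ternary complex with IGFBP3 and the acid-labile subunit. The other binding proteins carry IGF in smaller complexes. Igfbp1 is held down by insulin through FOXO1 and is raised by glucocorticoids and fasting. Dioxin response elements, which the activated AHR binds, hold the core GCGTG, and STAT5 binds sites of the form TTCNNNGAA.

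The promoter windows of the genes that moved together with TCDD (Igf1, Igfbp2, Igfbp3), of a binding protein that did not pass the test with TCDD at any hour (Igfbp1) and of the target gene with a STAT5-type match (Igfals) are shown so that the motifs can be read in place. They run from 250 bases before to 50 bases after the RefSeq start in build GRCm38.p6, while the count files used GRCm39. The window of Igf1 is chr10:87860861-87861160 on the plus strand, that of Igfbp2 chr1:72824230-72824529 (plus), that of Igfbp3 chr11:7213874-7214173 (minus), that of Igfbp1 chr11:7197537-7197836 (plus) and that of Igfals, at the second of its 3 listed starts, chr17:24877981-24878280 (plus). Each is written 5′ to 3′ in the direction of the gene, and capitals mark every match to GCGTG on either strand (GCGTG or CACGC) and to TTCNNNGAA.
Igf1: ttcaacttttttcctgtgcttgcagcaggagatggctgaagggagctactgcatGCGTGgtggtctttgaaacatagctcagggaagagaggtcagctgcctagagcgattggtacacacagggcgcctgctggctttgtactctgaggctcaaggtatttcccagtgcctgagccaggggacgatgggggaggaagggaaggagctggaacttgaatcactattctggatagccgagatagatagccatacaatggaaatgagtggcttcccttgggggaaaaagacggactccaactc
Igfbp2: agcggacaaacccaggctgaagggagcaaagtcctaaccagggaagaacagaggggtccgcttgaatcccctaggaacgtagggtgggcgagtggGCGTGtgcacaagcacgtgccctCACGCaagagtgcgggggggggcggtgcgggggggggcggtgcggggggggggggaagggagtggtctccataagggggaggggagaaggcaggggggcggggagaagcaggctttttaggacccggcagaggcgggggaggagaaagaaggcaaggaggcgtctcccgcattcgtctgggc
Igfbp3: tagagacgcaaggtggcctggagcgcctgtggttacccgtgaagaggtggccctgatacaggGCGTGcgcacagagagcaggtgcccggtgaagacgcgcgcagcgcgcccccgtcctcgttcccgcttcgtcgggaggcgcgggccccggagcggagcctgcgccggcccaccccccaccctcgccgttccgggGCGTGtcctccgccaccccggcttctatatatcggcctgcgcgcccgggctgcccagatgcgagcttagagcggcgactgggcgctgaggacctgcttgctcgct
Igfbp1: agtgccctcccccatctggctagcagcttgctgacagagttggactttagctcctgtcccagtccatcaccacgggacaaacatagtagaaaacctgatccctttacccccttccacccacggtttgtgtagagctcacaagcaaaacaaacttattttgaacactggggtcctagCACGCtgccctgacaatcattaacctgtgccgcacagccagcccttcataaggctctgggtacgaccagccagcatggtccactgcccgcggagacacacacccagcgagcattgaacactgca
Igfals: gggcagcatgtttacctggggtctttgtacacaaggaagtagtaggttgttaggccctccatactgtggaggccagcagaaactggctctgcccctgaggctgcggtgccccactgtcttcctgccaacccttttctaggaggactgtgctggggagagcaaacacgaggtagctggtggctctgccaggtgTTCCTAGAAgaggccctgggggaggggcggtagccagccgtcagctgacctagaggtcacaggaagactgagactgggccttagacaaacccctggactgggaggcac

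RefSeq windows were found for 8 of the 9 genes, Socs2 being the one without. In Igf1 the match to GCGTG lay 196 bases before the start, in Igfbp1 74 bases before it, in Igfbp2 the first of 2 matches lay 155 bases before it and those in Igfbp3 188 and 55 bases before it. Ghr held a match 156 bases before 1 of its starts and matches 218, 75 and 72 bases before another, and Stat5b held a match 220 bases before 1 of its starts. The Igfbp2 window shown belongs to 1 of its listed starts, and that of another held a match to GCGTG beginning 3 bases before it. Igfbp4 held neither motif. Igfals has 3 listed starts with different matches to TTCNNNGAA: that in the window shown lay 58 bases before its start, another lay 236 bases before the first start, and the window of the last start held neither motif. GCGTG was present in 32.4% of all 32851 promoter windows and TTCNNNGAA in 8.3%, and a match is a description of the letters, not a site. Igfbp1 and Igfbp3 are neighbours on chromosome 11, facing each other from opposite strands.

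Each library held between 13588848 and 30719161 read pairs on genes (median 18011825), with 16.8 to 48% of all pairs on no gene. Values are given as CPM, the pairs on a gene relative to those on all genes with TMM-scaled library sizes, so that in these bulk samples fewer cells of a type and less RNA per cell cannot be told apart. The labels do not say whether the 4 libraries of a group came from separate animals or cultures, so that the p-values measure the spread between libraries, which may be technical. The transcript of the targeted gene went against the genotype labels: Pkm rose with TCDD in the libraries labelled PkmΔDRE, from 54.9 (37.8 to 81.5) to 129.7 (109.2 to 169) CPM at 8 h, and was 62.4 (41.8 to 80.8) and 45.6 (29.3 to 62.6) CPM in those labelled WT. The groups are therefore called by their labels throughout, and no direction between genotypes is drawn. The treatment label was at odds with Cyp1a1, a gene induced by AHR, in 4 libraries labelled WT: vehicle replicate 1 at 48 h (3285 CPM), vehicle replicate 3 at 96 h (1717 CPM), TCDD replicate 4 at 72 h (29.2 CPM) and TCDD replicate 4 at 2 h (1.15 CPM). In the PkmΔDRE label the hour was at odds with the whole profile in replicate 4 of vehicle at 4 h and at 96 h, whose closest group means were those of 96 h and 4 h. These 4 and 2 libraries are called doubted below. Vehicle replicate 1 at 72 h of the PkmΔDRE label was not counted among them. Its closest group mean was vehicle at 120 h of the WT label (correlation 0.984, and 0.925 with its own group). Of pairs counted by strand, 63.3% fell on 1 strand in TCDD replicate 1 at 96 h of the WT label, the next highest library having 51.5%. Hepatocyte markers (Alb, Apoa1, Ttr, Apob, Tat, Cyp2e1) summed to between 117472 and 202024 CPM in vehicle at 2 h and to between 3078 and 16969 CPM at 120 h.

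In vehicle, 8 of the 9 genes had changed at 120 h against 2 h in both labels, 7 downward and Igfbp3 upward. Among these calls, in the PkmΔDRE label, those of Igfbp3 (adjusted p = 0.095) and Igfbp4 (adjusted p = 0.068) were lost without replicate number 3. A gene is called where edgeR's quasi-likelihood fit gives an adjusted p (Benjamini-Hochberg, all genes tested) under 0.05 and a change of at least 1.5-fold. Of all genes tested, 57.9% were called in the libraries labelled WT and 49.4% in those labelled PkmΔDRE, so that a member called with time in culture is not particular to the axis. The median log2 change of the 9 genes' 2 groups was -1.79 for Ghr, Stat5b, Socs2, Igf1 and Igfals and -1.92 for the binding proteins in libraries labelled WT, beside 0.21 over all genes; the values were -2.18, -1.61 and 0.24 in those labelled PkmΔDRE.

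Igf1, the hormone of the axis, stood at 407, 457, 371 and 377 CPM at 2 h in the vehicle libraries labelled WT and at 25.3, 67.2, 12.7 and 25.2 CPM at 120 h. In those labelled PkmΔDRE it stood at 526, 419, 528 and 527 CPM and then at 17.9, 19.5, 33.02 and 37.6 CPM. Every library at 120 h was thus below every library at 2 h. The log2 change was -3.80 ± 0.35 (SE; n = 4 libraries an hour) in libraries labelled WT and -4.41 ± 0.65 in those labelled PkmΔDRE. Between neighbours in the order of mean levels, ranges were apart between 4 and 8 h and between 12 and 48 h in libraries labelled WT, and all other neighbours in that order overlapped.

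Igfbp2, a binding protein abundant in fetal and fasted liver, fell further. It went from 442, 476, 840 and 580 CPM at 2 h to 3.17, 10.1, 7.37 and 3.69 CPM at 120 h in libraries labelled WT, a log2 change of -6.75 ± 0.50, and of -6.87 ± 1.27 in those labelled PkmΔDRE. Igfbp3 went the other way: 4.68 ± 1.41 CPM (SD, n = 4) at 2 h became 79.3 ± 33.8 CPM at 120 h in libraries labelled WT, no library of the earlier hour reaching 36.9 CPM, the lowest of the later, a log2 change of 3.90 ± 0.56, and the change was 3.54 ± 1.19 in those labelled PkmΔDRE. In liver, Igfbp3 is known mainly from the cells other than hepatocytes. The 6 Kupffer cell markers (Adgre1, Clec4f, Cd5l, Csf1r, Timd4, Cd68) summed to between 150.2 and 341.5 CPM at 2 h and to between 13.4 and 74.6 CPM at 120 h, so they fell while Igfbp3 rose. Endothelial markers (Pecam1, Stab2, Kdr, Lyve1, Cdh5, Clec4g) fell in 5 of 6 genes in both labels, while the cholangiocyte list rose in 3 of 5 genes (Spp1, Krt19 and Krt7), its sum going from between 55.8 and 140.8 CPM to between 580.6 and 1227 CPM. Of the stellate cell and fibroblast list, Des and Col1a1 rose and Reln fell in both labels. Over the same hours 57.9% and 49.4% of all genes were called in the WT and PkmΔDRE labels. The part of these cells in the levels of the 9 genes was not tested.

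The receptor and its transducer were lower at the end of the culture as well. Ghr had a mean of 228 ± 43.2 CPM (SD, n = 4) at 2 h, 48.7 CPM at 24 h and 74.1 CPM at 120 h in libraries labelled WT, and 235, 60.8 and 59.5 CPM in those labelled PkmΔDRE. It therefore lost most of its level in the first day, a log2 change of -2.35 and -2.08 between 2 and 24 h, and from 24 to 120 h it was at 0.56 (adjusted p = 0.014, under the 1.5-fold limit) and -0.10 on the log2 scale. Stat5b, the transducer, stayed between 42.6 and 133.2 CPM in all libraries, with log2 changes from 2 to 120 h of -1.0 ± 0.15 and -1.17 ± 0.24. Socs2 was the 1 gene of the 9 not called at 120 h against 2 h, with log2 differences of 1.12 ± 0.53 (adjusted p = 0.066) and 0.65 ± 0.75 (adjusted p = 0.48).

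Igfals, the acid-labile subunit, kept a mean of 56.1 CPM at 24 h after 78.9 CPM at 2 h in libraries labelled WT and came to 10.7 CPM at 120 h, while in those labelled PkmΔDRE it went from 100.0 to 5.13 CPM over the same span. The log2 changes from 2 to 120 h were -3.06 ± 0.40 and -4.48 ± 0.69. Igfbp1 fell and rose again: its mean in libraries labelled WT was 1464 CPM at 2 h, 838 CPM at 4 h, 204 CPM at 8 h, 78.7 CPM at 12 h, 72.6 CPM at 24 h and 339 CPM at 120 h. Its log2 change was -4.47 and -3.86 between 2 and 24 h and 2.18 and 2.02 between 24 and 120 h in the WT and PkmΔDRE labels, each called. Igfbp4, a binding protein that holds IGF away from its receptor, had means of 1456, 694 and 559 CPM at 2, 24 and 120 h in libraries labelled WT and of 1573, 380 and 698 CPM in those labelled PkmΔDRE, with log2 changes from 2 to 120 h of -1.55 ± 0.29 and -1.38 ± 0.36.

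**Figure D1:**
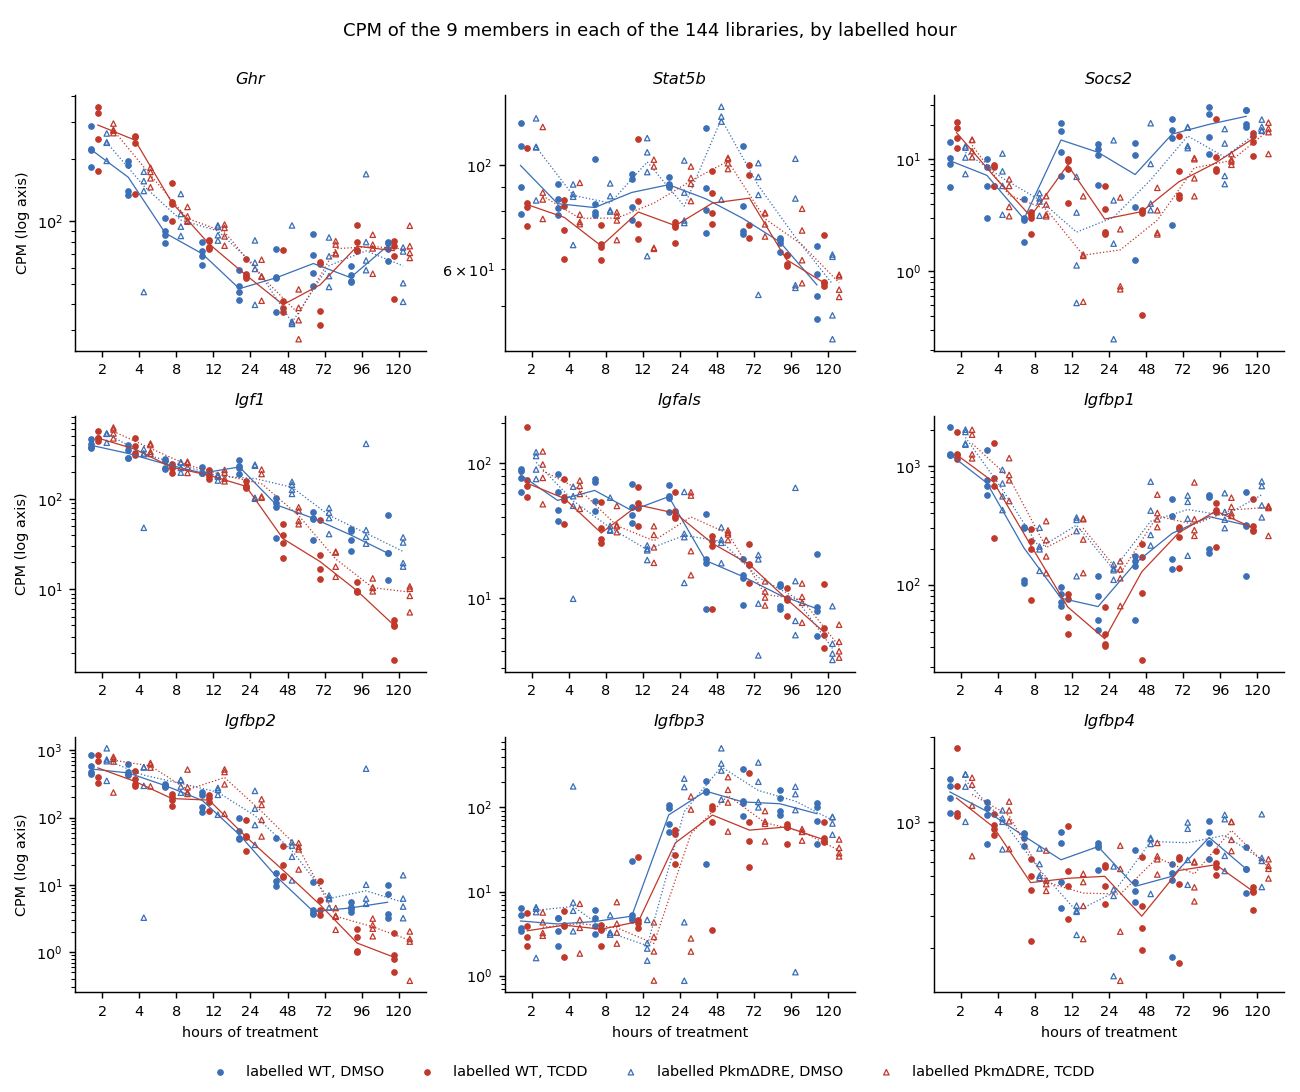
Level of each of the 9 genes (CPM, log axis) in every library against hours of treatment, with vehicle in blue, TCDD in red, the WT label as filled circles and the PkmΔDRE label as open triangles, and lines through the medians; values below 0.25 CPM are drawn at 0.25. Igfbp2 and Igf1 descend over the hours and Igfbp3 ascends after 12 h, and 2 vehicle libraries of the PkmΔDRE label lie far from their groups, with Igf1 at 48.02 CPM at 4 h and 407 CPM at 96 h.

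Counted by contrast, 24 h against 2 h called 45.8% and 33.2% of all genes in the WT and PkmΔDRE labels, and 120 h against 24 h called 35.6% and 23.4%. Over these and the 120 h against 2 h contrast, 19 of 27 member tests were called in libraries labelled WT and 20 of 27 in those labelled PkmΔDRE. In the latter label the 24 h group was split among its libraries, Igfbp3 being 0.870, 4.32, 174.5 and 219.8 CPM in vehicle, and the 24 h against 2 h calls of Igf1, Igfbp2 and Igfals were lost without replicate number 1, 2 or 3 and that of Igfbp3 without number 3 (adjusted p = 0.108).

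Set on a scale that allows genes to be compared, CPM per kilobase of exon, the vehicle levels in libraries labelled WT at 2 h were 960 for Igfbp1, 329.8 for Igfbp4, 316.4 for Igfbp2, 40.7 for Igf1, 25.2 for Ghr, 24.9 for Igfals, 18.1 for Stat5b, 1.496 for Igfbp3 and 1.02 for Socs2. At 120 h the order had become Igfbp1 at 222.5, Igfbp4 at 126.6, Igfbp3 at 25.4, Stat5b at 10.2, Ghr at 8.18, Igfals at 3.38, Igfbp2 and Igf1 at 3.29 each and Socs2 at 2.48. Igfbp1 and Igfbp4 thus headed the order of mean levels at both ends of the culture in the WT label. In libraries labelled PkmΔDRE the levels at 2 h were 1151 for Igfbp1, 385.4 for Igfbp2 and 356.2 for Igfbp4, the last 2 with overlapping ranges, and at 120 h they were 369.1 for Igfbp1, 158.1 for Igfbp4, 21.2 for Igfbp3 and 2.73 for Igf1.

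**Figure D2:**
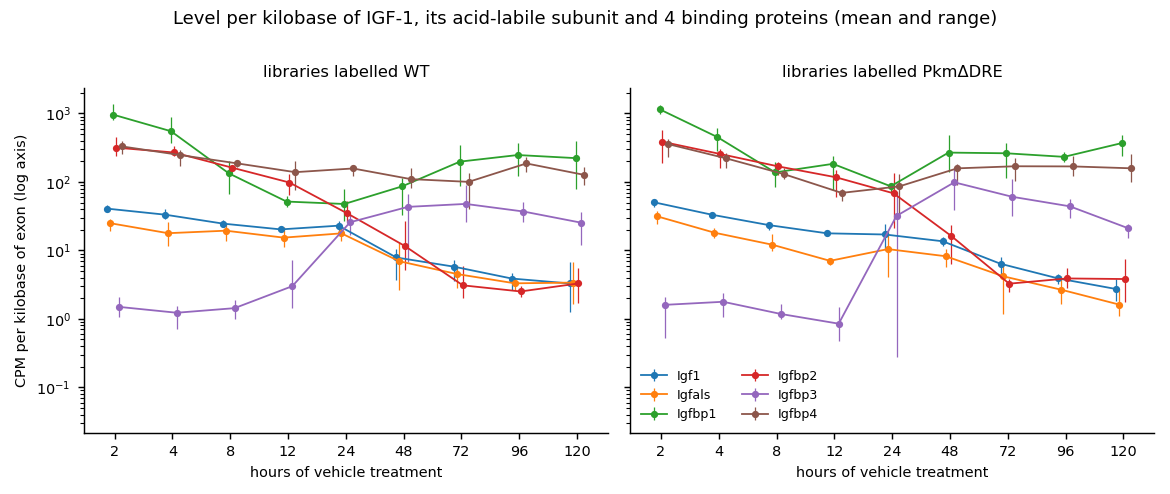
Vehicle level per kilobase of exon (CPM per kb, log axis) of Igf1, Igfals and the 4 binding proteins against hours of treatment for each genotype label, points giving the mean and bars the range over 4 libraries, or over 3 at 4 h and 96 h of the PkmΔDRE label, where the doubted replicate 4 is left out. Igfbp1 starts at 960 and ends at 222.5 in libraries labelled WT, while Igfbp2 goes from 316.4 to 3.29 and crosses Igfbp3, which goes from 1.496 to 25.4.

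With TCDD, Igf1 fell against time-matched vehicle at 96 and 120 h in libraries labelled WT and at 72 and 120 h in those labelled PkmΔDRE. Igfbp2 fell at 8, 96 and 120 h in libraries labelled WT and was not called at any single hour in those labelled PkmΔDRE. Igfbp3, Igfbp4 and Igfals were each called downward at fewer hours, and Socs2 only with hours averaged. At single hours, 9 member tests of 81 were called in libraries labelled WT and 3 of 81 in those labelled PkmΔDRE, with 11 of these 12 downward. Of all genes, the share called in libraries labelled WT was 0% (2 h), 0% (4 h), 37.4% (8 h), 0.0321% (12 h), 0.373% (24 h), 0.00763% (48 h), 0% (72 h), 15.1% (96 h) and 1.46% (120 h). The PkmΔDRE label gave 0% (2 h), 0% (4 h), 0.106% (8 h), 0.024% (12 h), 0.016% (24 h), 0.404% (48 h), 1.13% (72 h), 0.0793% (96 h) and 0.633% (120 h). Where edgeR called no gene at all, 166 genes passed an unadjusted p of 0.05 at 2 h, 2126 at 4 h and 276 at 72 h in libraries labelled WT, and 1717 at 2 h and 289 at 4 h in those labelled PkmΔDRE.

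Igf1 at 96 h in libraries labelled WT was 46.9, 44.6, 26.4 and 35.6 CPM in vehicle and 12.1, 9.71, 9.55 and 9.36 CPM with TCDD. At 120 h it was 25.3, 67.2, 12.7 and 25.2 CPM against 4.62, 3.90, 1.66 and 4.07 CPM. No TCDD library reached a vehicle library at either hour. The log2 changes were -1.86 ± 0.19 (3.62-fold lower, adjusted p = 0.0002) at 96 h and -3.19 ± 0.55 (9.13-fold lower, adjusted p = 0.0275) at 120 h. The 96 h call was kept on leaving out each of the 8 libraries in turn. The 120 h call was lost without vehicle replicate 1 or 4 or any 1 TCDD replicate, the log2 change then ranging from -3.34 to -2.95 and the adjusted p from 0.0517 to 0.122, and it was lost with no filter on low counts (adjusted p = 0.0997).

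In libraries labelled PkmΔDRE, Igf1 at 72 h was 40.95, 61.5, 70.5 and 79.6 CPM in vehicle and 13.8, 26.2, 17.8 and 25.6 CPM with TCDD. At 120 h it was 17.9, 19.5, 33.02 and 37.6 CPM against 10.2, 5.58, 8.48 and 10.8 CPM. The groups were again apart, with log2 changes of -1.63 ± 0.27 (3.09-fold lower, adjusted p = 0.0125) and -1.64 ± 0.30 (3.12-fold lower, adjusted p = 0.0426). Leaving out 1 library ended the 72 h call for vehicle replicate 4 and TCDD replicates 1 and 3 (adjusted p 0.051 to 0.0625) and the 120 h call for vehicle replicates 3 and 4 and each TCDD replicate (adjusted p 0.0909 to 0.13). The share of unmapped pairs also ran with treatment in this label. It was 4.06 to 6.68% in vehicle and 2.20 to 2.48% with TCDD at 120 h. At 96 h it was 4.30 to 11.1% and 1.957 to 2.90%, and at 48 h 4.57 to 6.87% and 2.88 to 3.74%. At 72 h the ranges just overlapped, at 3.065 to 7.74% and 2.43 to 3.16%. With the share of pairs on no annotated feature as a covariate, which holds no unmapped pairs, both Igf1 calls were kept. The share of unmapped pairs was not fitted, and its part was not tested.

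At 96 h in the same label, vehicle Igf1 was 32.02, 45.3, 38.2 and 407 CPM, the last in the doubted replicate 4, against 9.51, 10.5, 10.4 and 13.2 CPM with TCDD. With all 8 libraries the log2 change was -3.72 ± 0.93 (adjusted p = 0.41), and without that library it was -1.86 ± 0.21 and was called (adjusted p = 0.00088). Groups were apart without passing the test at 48 h, where Igf1 was 126.3, 154.6, 113.8 and 143.4 CPM in vehicle and 57.2, 80.8, 52.6 and 73.9 CPM with TCDD (log2 change -1.11 ± 0.20, adjusted p = 0.059), and at 24 h in libraries labelled WT, where it was 187, 234, 270 and 218 CPM against 132.6, 140.4, 159.6 and 135.4 CPM (-0.60 ± 0.14, adjusted p = 0.12). In libraries labelled WT the 48 h vehicle value of 36.97 CPM in the doubted replicate 1 lay below 80.8 CPM, the lowest of the other 3, and within the TCDD values of 22.03, 32.7, 52.3 and 39.9 CPM. At 72 h the doubted TCDD replicate 4 held 58.4 CPM beside 23.7, 16.8 and 12.99 CPM. Without them the log2 change was -1.29 at 48 h (adjusted p = 0.40) and -1.67 at 72 h (adjusted p = 0.17).

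Igfbp2 fell with TCDD in libraries labelled WT at 3 hours. It was 315, 300, 286 and 298 CPM in vehicle and 180, 204, 150 and 227 CPM with TCDD at 8 h, a log2 change of -0.69 ± 0.14 (1.61-fold lower, adjusted p = 0.0028). At 96 h it was 5.56, 4.66, 4.43 and 3.91 CPM against 2.18, 1.68, 1.02 and 1.05 CPM (-1.58 ± 0.28, 2.99-fold lower, adjusted p = 0.0023). At 120 h it was 3.17, 10.1, 7.37 and 3.69 CPM against 0.899, 0.781, 1.94 and 0.514 CPM (-2.57 ± 0.50, 5.93-fold lower, adjusted p = 0.0361). The groups were apart at each of these hours, and the 120 h call was lost without vehicle replicate 3 or 4 or TCDD replicate 1, 2 or 4 (adjusted p 0.0545 to 0.15). No vehicle library at 96 h was above 5.56 CPM, so that the late changes concern a scarce transcript.

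In libraries labelled PkmΔDRE, Igfbp2 at 96 h was 10.1, 6.25, 5.24 and 534 CPM in vehicle and 2.53, 2.24, 3.16 and 1.73 CPM with TCDD, the 534 CPM standing in the doubted replicate. The log2 change was -6.01 ± 1.73 (adjusted p = 0.55) with it and -1.61 ± 0.31 (adjusted p = 0.022) without it. The groups were also apart at 72 h (-0.87, adjusted p = 0.30) and at 120 h, where 13.95, 3.20, 4.77 and 6.27 CPM in vehicle stood against 1.57, 1.44, 2.03 and 0.377 CPM (-2.41 ± 0.56, adjusted p = 0.117).

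Igfbp3, which binds most circulating IGF1, was lower with TCDD at 96 h in libraries labelled WT, at 90.7, 80.3, 130.3 and 161.1 CPM in vehicle and 36.5, 58.9, 58.1 and 62.98 CPM with TCDD (log2 change -1.03 ± 0.22, 2.04-fold lower, adjusted p = 0.0074). In libraries labelled PkmΔDRE it was lower at 120 h, with 76.99, 47.4, 64.3 and 76.6 CPM against 28.6, 26.2, 41.6 and 33.04 CPM (-1.06 ± 0.20, 2.09-fold lower, adjusted p = 0.046). The groups were apart in both. The call at 96 h was kept without each library in turn. It was lost with the share of pairs on no annotated feature as a covariate (-0.65, adjusted p = 0.145). The call at 120 h was lost in 7 of 8 fits with 1 library left out, those without vehicle replicate 1, 3 or 4 or any 1 TCDD replicate (adjusted p 0.073 to 0.164). At 96 h in libraries labelled PkmΔDRE the log2 change was -1.52 ± 0.22 (adjusted p = 0.0055) without the doubted replicate, whose Igfbp3 was 1.10 CPM among 92.9, 176.1 and 143.8 CPM. At 4 h the value of 178 CPM in the doubted replicate stood among 3.37, 7.40 and 5.91 CPM, and the log2 change of -3.37 became -0.38 without that library, not called in either.

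Socs2, the feedback inhibitor, was not called at any single hour. In libraries labelled WT at 24 h it was 10.8, 13.7, 12.2 and 5.87 CPM in vehicle and 2.23, 3.62, 5.80 and 2.17 CPM with TCDD (log2 change -1.55 ± 0.37, adjusted p = 0.152), and at 120 h it was 27.5, 27.5, 20.5 and 19.2 CPM against 14.3, 17.1, 10.7 and 16.04 CPM (-0.70 ± 0.19, adjusted p = 0.099). In libraries labelled PkmΔDRE at 72 h it was 19.02, 19.3, 12.5 and 13.1 CPM against 4.67, 9.97, 10.2 and 6.74 CPM (-1.06 ± 0.31, adjusted p = 0.17). The groups were apart at these 3 points, at 24 h only by 5.87 against 5.80 CPM, and the change at each did not pass the adjusted threshold. How often groups lay apart over all genes was not counted, so no change is read from this for Socs2 or for other members not called.

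Ghr, the receptor, was the 1 gene of the 9 called upward with TCDD at an hour. At 96 h in libraries labelled WT it was 51.8, 61.02, 55.5 and 50.8 CPM in vehicle and 96.4, 79.3, 72.7 and 72.0 CPM with TCDD, with no overlap (log2 change 0.61 ± 0.12, 1.52-fold higher, adjusted p = 0.0032). That fold lay just inside the 1.5-fold limit and left it without vehicle replicate 1 or 4 or TCDD replicate 1 (log2 change 0.48 to 0.58). It also left it with no filter on low counts (0.57) and with the share of pairs on no annotated feature as a covariate (0.53, adjusted p = 0.052). In libraries labelled PkmΔDRE at 96 h it was 58.3, 79.6, 64.9 and 169 CPM in vehicle, the last in the doubted replicate, and 56.01, 77.3, 74.2 and 86.4 CPM with TCDD, so the groups overlapped. Stat5b was not called at any hour; the nearest value was a log2 change of -0.37 at 8 h in libraries labelled WT (adjusted p = 0.047), under the 1.5-fold limit.

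Igfals and Igfbp4 were called once each, both at 8 h in libraries labelled WT. Igfbp4 was 821, 739, 870 and 857 CPM in vehicle and 420, 504, 219 and 623 CPM with TCDD, with no overlap (log2 change -0.93 ± 0.24, 1.90-fold lower, adjusted p = 0.0087). Igfals was 44.1, 52.6, 72.98 and 76.02 CPM against 33.2, 27.4, 25.6 and 51.1 CPM, and the groups overlapped (-0.87 ± 0.24, 1.83-fold lower, adjusted p = 0.0106). With Igfbp2 these make 3 of the 9 genes at an hour when 37.4% of all genes were called, a share close to that of the background. At that hour the share of pairs on no annotated feature was 4.89 to 5.995% in the vehicle libraries and 8.36 to 21.95% with TCDD, without overlap. The 3 calls were kept with that share as a covariate. At 96 h the count was 4 of 9 (Igf1, Igfbp2, Igfbp3 and Ghr) beside 15.1% of all genes, and at 120 h 2 of 9 beside 1.46%. Igfbp1 was not called with TCDD at any hour in either label. In 1 fit of all libraries of a label, 7 of the 12 calls at single hours were lost, those of Igfbp2 at 8 h (adjusted p = 0.12), of Igfbp2 (0.081), Igfbp3 (0.44) and Ghr (0.20) at 96 h in the WT label and of Igf1 at 72 h (0.078) and 120 h (0.11) and Igfbp3 at 120 h in the PkmΔDRE label, while the direction of each stayed.

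**Figure D3:**
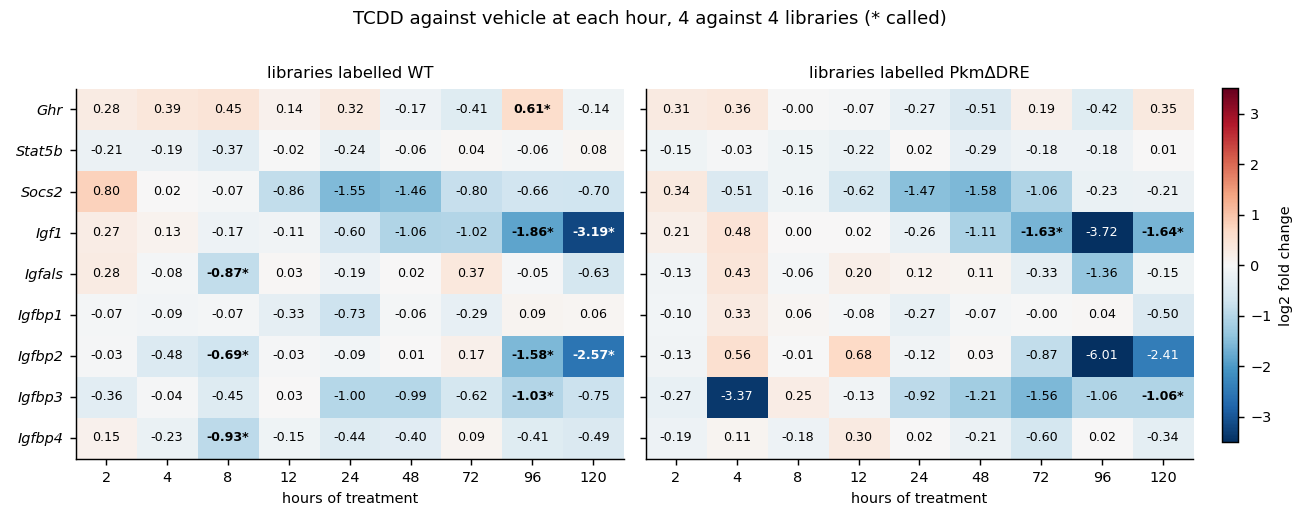
Log2 change with TCDD against time-matched vehicle (colour, clipped at 3.5 in either direction) for each of the 9 genes at each hour and genotype label, an asterisk marking a called change. The cells of Igf1 from 48 h on are at -1.02 or lower in both labels, and the values of -6.01 for Igfbp2 and -3.72 for Igf1 at 96 h in the PkmΔDRE label, which hold the doubted replicate, lie beyond the colour scale.

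Averaged over the 5 hours from 24 to 120 h, the TCDD response was downward for Igf1, Socs2, Igfbp2 and Igfbp3 in libraries labelled WT and for Igf1 and Igfbp2 in those labelled PkmΔDRE. In libraries labelled WT the log2 change was -1.57 ± 0.14 for Igf1 (adjusted p = 7.383e-13), -1.05 ± 0.22 for Socs2 (0.00074), -0.91 ± 0.27 for Igfbp3 (0.026) and -0.84 ± 0.20 for Igfbp2 (0.0033). In those labelled PkmΔDRE it was -1.64 ± 0.20 for Igf1 (adjusted p = 7.071e-09) and -1.84 ± 0.37 for Igfbp2 (0.00046), and it was -0.88 ± 0.28 for Socs2 (0.061) and -1.15 ± 0.42 for Igfbp3 (0.109), which did not pass. These are 4 of 9 genes beside 3.18% of all genes and 2 of 9 beside 3.48%. In the PkmΔDRE label the share of unmapped pairs was also apart between treatments at 48, 96 and 120 h. It was not fitted, and its part in these averages was not tested. Ghr, Stat5b, Igfals, Igfbp1 and Igfbp4 lay between -0.35 and 0.02 in libraries labelled WT and between -0.30 and -0.10 in those labelled PkmΔDRE, none of them called. Averaged over all 9 hours, 4 of 9 (Igf1 at -0.89, Igfbp2, Igfbp3 and Socs2 at -0.63 each) were called in libraries labelled WT, where 9.17% of all genes were, and 3 of 9 (Igf1 at -0.87, Igfbp2 at -0.94 and Igfbp3 at -1.06) in those labelled PkmΔDRE, where 2.12% were.

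Without the 2 doubted libraries the late average in the PkmΔDRE label was -1.28 for Igf1, -0.98 for Igfbp2, -0.91 for Socs2 and -1.24 for Igfbp3, all 4 called, while over 9 hours the call of Igf1 alone was kept (-0.70; Igfbp2 -0.50, adjusted p = 0.055; Igfbp3 -0.77, adjusted p = 0.097). Without its 4 doubted libraries the late average in the WT label was -1.77 for Igf1, -1.27 for Socs2, -1.20 for Igfbp3 and -0.85 for Igfbp2, all called. The late call of Igfbp3 in libraries labelled WT was lost with each replicate number left out (adjusted p 0.0511 to 0.154) and that of Socs2 without number 2 (0.0951; its 9-hour call without number 1 or 2), and the 9-hour calls of Igfbp2 (adjusted p 0.0603 to 0.265) and Igfbp3 (0.0848 to 0.317) in the PkmΔDRE label were lost with each number left out.

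**Figure D4:**
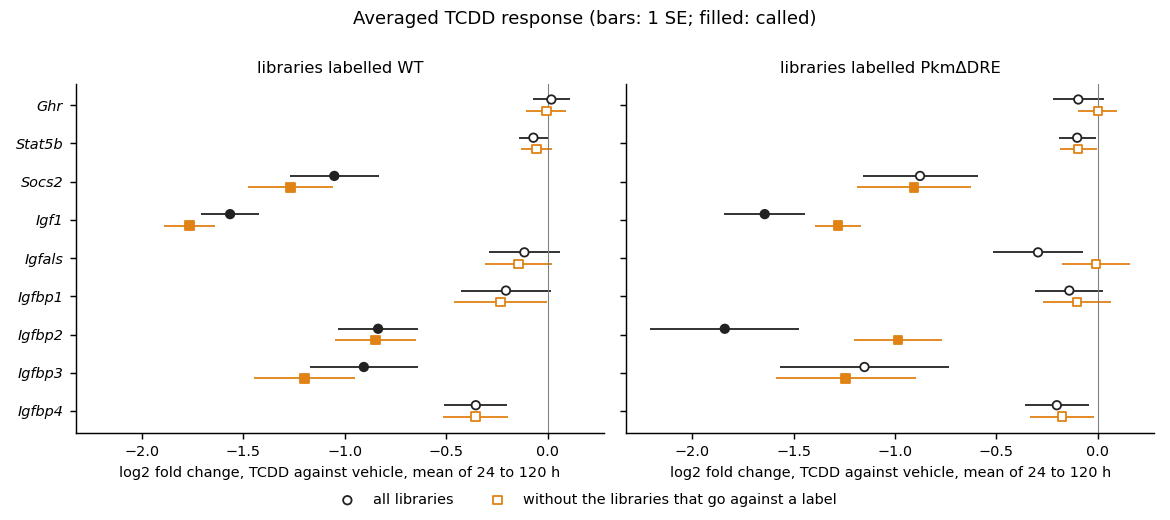
Log2 change with TCDD averaged over 24 to 120 h for the 9 genes in each genotype label, bars giving 1 SE and filled points a called change; orange points leave out the doubted libraries, 4 in the WT label and 2 in the PkmΔDRE label. Igf1 is at -1.57 and -1.64, Ghr and Stat5b are near 0, and Igfbp2 in the PkmΔDRE label goes from -1.84 to -0.98 without them.

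The response to TCDD of the 9 genes was then compared between the genotype labels by the interaction of label and treatment, and no gene of the 9 was called at any hour or on average. Of all genes, 0.00715% were called at 48 h and 0.00695% at 72 h, 0% at each other hour, with 0.45% over the 9 hours and 0.117% over the late hours. At an unadjusted p of 0.05, edgeR passed Igfbp3 (4 h), Ghr (8 h and 96 h), Igfbp2 (96 h and the late average) and Igf1 (120 h). DESeq2 called no member. Many other genes passed the unadjusted limit too: 1186 of 13214 (4 h), 2114 of 13333 (8 h) and 1930 of 14771 (96 h). The counts were lower for 120 h, with 482 of 15324, and for the late average, with 843 of 17986. No label difference is read from these passes. The difference in the late response, the PkmΔDRE label minus the WT label, was -0.06 ± 0.24 for Igf1, 0.19 ± 0.36 for Socs2, -0.23 ± 0.50 for Igfbp3 and -0.99 ± 0.42 for Igfbp2 (adjusted p = 0.94). Without the 6 doubted libraries it was 0.47 ± 0.17 for Igf1 (adjusted p = 0.64) and -0.13 ± 0.29 for Igfbp2. A difference that misses the threshold does not show that the responses were alike.

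Between the labels in vehicle, Igfbp1 and Igfals differed at 12 h. Igfbp1 was 65.9, 82.6, 95.7 and 70.7 CPM in libraries labelled WT and 367.7, 117.6, 351.3 and 282.5 CPM in those labelled PkmΔDRE, a log2 difference of 1.85 ± 0.30 (3.61-fold higher, adjusted p = 0.015). Igfals was 41.4, 47.7, 35.8 and 69.5 CPM against 24.5, 19.1, 23.04 and 22.5 CPM, a log2 difference of -1.10 ± 0.22 (2.14-fold lower, adjusted p = 0.027). No library of one label overlapped those of the other for either gene. The 2 calls of 9 stood beside 3.68% of all genes at 12 h. At the other hours no member was called, and the share of all genes was 0.0576% at 8 h and 0% elsewhere. At these hours edgeR passed 8 member tests at an unadjusted p of 0.05, among them Igfbp1 at 24 and 48 h (log2 difference 0.93 and 1.62). Of all genes, that limit passed between 446 of 14391 (120 h) and 1211 of 12157 (8 h) at these hours. It passed 454 of 12843 at 24 h and 734 of 13101 at 48 h. Leaving out replicate 2 of the WT label or replicate 3 or 4 of the PkmΔDRE label ended the Igfbp1 call (adjusted p 0.0627 to 0.0876), and leaving out these or replicate 1 of the PkmΔDRE label ended that of Igfals (0.0687 to 0.121), which was also lost in 1 fit of all libraries (adjusted p = 0.186).

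Upstream of Igf1, the list of growth hormone receptor signalling (13 genes, among them Jak2, Stat5a, Stat3, Cish, Socs1 and Socs3) had no gene called in the late TCDD average in either label, with medians of 0.00 and -0.08 beside -0.01 and -0.04 over all genes. Of its most abundant genes, Grb2, an adaptor, was at -0.10 and -0.03, Ptpn11, a phosphatase, at 0.00 and 0.11, and Stat3 at 0.07 and 0.14 on the log2 scale. At 120 h against 2 h in vehicle, 8 of 13 genes of the same list had fallen (Ptpn1, Cish, Grb2, Stat3, Socs3, Socs7, Prlr and Socs1) and Jak2 had risen in both labels. The medians were -1.25 and -0.93 beside 0.21 and 0.24 over all genes. Of all genes, 57.9% and 49.4% were called in the WT and PkmΔDRE labels, 3887 of 15862 and 3623 of 15968 downward. On the log2 scale Grb2 was at -1.82 ± 0.14 and -2.01 ± 0.29 and Stat3 at -1.90 ± 0.13 and -1.68 ± 0.23.

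Among IGF and insulin receptors and other IGF genes, 9 of 10 were tested, and 1 of 9 was called in the late TCDD average in libraries labelled WT, Igfbp7 at -0.69 ± 0.17 (adjusted p = 0.0044), and none in those labelled PkmΔDRE, where Igfbp7 was at -0.36 (adjusted p = 0.51). In vehicle, Igf1r, Insr, Igfbp6 and Igf2r were higher at 120 h than at 2 h in both labels, Insr, the insulin receptor, by 1.26 ± 0.20 and 1.19 ± 0.32 and Igf2r, the clearance receptor of IGF2, by 0.67 ± 0.30 and 1.21 ± 0.45. Of all genes tested, 5291 of 15862 and 4272 of 15968 were called upward over the same hours, so a rise is not particular to these genes. The list's medians were 0.33 and 0.73 beside 0.21 and 0.24 over all genes. Of the proteases that cleave binding proteins and their inhibitors (4 of 5 tested), Htra1, a secreted serine protease, was called upward with TCDD in both labels, by 1.29 ± 0.29 (adjusted p = 0.0023) and 1.38 ± 0.25 (adjusted p = 9.932e-05), and Stc2, an inhibitor of PAPP-A, rose over the culture by 5.34 and 3.17 on the log2 scale. Both were scarce. Mean Htra1 at 120 h was 0.836 CPM in vehicle and 2.41 CPM with TCDD in the WT label, and 0.911 and 2.32 CPM in the PkmΔDRE label. Mean Stc2 in vehicle went from 0.045 CPM at 2 h to 2.26 CPM at 120 h in the WT label, and from 0.33 to 3.54 CPM in the PkmΔDRE label.

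Genes known to be set by the male pattern of growth hormone secretion fell with time in culture. Of 13 such genes, 12 were lower at 120 h than at 2 h in vehicle in both labels, with medians of -6.70 and -6.53 beside 0.21 and 0.24 over all genes. Among all genes tested, 3887 of 15862 and 3623 of 15968 were called downward. The log2 changes were -8.31 and -8.70 for Serpina1e, -6.02 and -7.16 for Cyp2d9, -4.14 and -3.34 for Mup20, a major urinary protein, and -1.955 and -2.15 for Gstp1, while Bcl6, a repressor held down by growth hormone, was called upward in the PkmΔDRE label. With TCDD in the late average none of the 13 was called in libraries labelled WT, and Cyp4a12b and Serpina1e (-1.71 ± 0.39, adjusted p = 0.0026) were in those labelled PkmΔDRE.

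Among genes known to be higher in female liver, Acot3, a peroxisomal thioesterase, was higher with TCDD by 2.55 ± 0.55 and 3.32 ± 0.47 on the log2 scale in the late average of the WT and PkmΔDRE labels, and Cyp2a4 was called in the PkmΔDRE label (2.26 ± 0.44) and not in the WT label (1.93 ± 0.96, adjusted p = 0.26). Cyp2b10, among the most abundant of these genes, was at 0.00 and 0.30 and was not called. Genes of the insulin and FOXO1 response (6 genes) were not called but for Pck1, the gluconeogenic enzyme, at -1.10 ± 0.27 (adjusted p = 0.0056) and -1.73 ± 0.40 (adjusted p = 0.0030), and the medians were 0.09 and -0.05. Foxo1 was at 0.29 and 0.45 and Irs2 at -0.31 and -0.24, none called. Acot3 and Pck1 were scarce late in culture. At 120 h in the WT label, mean Acot3 was 0.47 CPM in vehicle and 3.09 CPM with TCDD, and mean Pck1 2.23 and 0.692 CPM. In the PkmΔDRE label they were 0.74 and 6.31 CPM and 3.82 and 2.06 CPM.

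All 6 genes of the AHR battery were called upward in the late average in both labels, with medians of 5.13 and 6.59, Cyp1a2 for instance at 4.83 ± 0.44 and 5.09 ± 0.30, so both labels responded to TCDD while Igf1 fell. Of the hepatocyte markers, Tat and Apoa1 (-1.17 ± 0.20 and -1.04 ± 0.25) were lower with TCDD in both labels and Alb was at 0.07 and 0.06, with summed levels at 120 h of between 3078 and 16969 CPM in vehicle and of between 4144 and 15135 CPM with TCDD. The Kupffer cell list at 120 h summed to between 13.4 and 74.6 CPM in vehicle and between 13.6 and 45.98 CPM with TCDD, with Cd5l called downward in the PkmΔDRE label. The endothelial list summed to between 36 and 104.3 CPM and between 47.04 and 185.5 CPM, none of its genes called, and the stellate cell and fibroblast list to between 14.5 and 155 CPM and between 70.1 and 188 CPM, with Reln called upward in both labels. The cholangiocyte list summed to between 580.6 and 1227 CPM in vehicle and between 316.8 and 792.4 CPM with TCDD, Krt19 being called downward in libraries labelled WT (-1.28 ± 0.25). The part of these cells in the TCDD response of Igf1 and the binding proteins was not tested.

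Across the 36 group means, on the scale of log2(CPM + 1), the genes most like each member by Pearson's r among 12219 genes were C4bp (0.971), Ifitm3 (0.966) and Wfdc21 (0.964) for Igf1, Qsox1 (0.963), Gpx1 (0.961) and Ifitm3 (0.960) for Igfals, and Rarres2 (0.990), Pemt (0.989) and Hsd17b6 (0.989) for Igfbp2. For Ghr they were Tdo2 (0.961), Scn4a (0.958) and Keg1 (0.958), for Igfbp3 Mlph (0.979), Lgals1 (0.977) and Plat (0.975), and for Socs2 Sox9 (0.918), Fst (0.908) and Gpc4 (0.844). Stat5b was matched less closely, by Dlst (0.880), Afg3l1 (0.872) and Blvra (0.872), as were Igfbp1, by Rasa3 (0.917), Txnip (0.910) and Npc1 (0.904), and Igfbp4, by Mccc2 (0.906), Acaa1a (0.897) and Glul (0.896). Among the members, Igf1 went with Igfbp2 (0.95) and Igfals (0.92), Igfbp1 with Igfbp4 (0.74), and Igfbp2 opposite to Igfbp3 (-0.83). These group means hold all libraries, the doubted ones among them. They also share the hours of culture, which moved many genes, so the coefficients describe a common course and carry no p.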

How the data were processed

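RNA-seq of 36 groups of 4 libraries was analysed from counts of read pairs per gene that the authors made and deposited with STAR 2.7 on GRCm39 after Trimmomatic 0.39 (submitters' processing notes), using the unstranded column; pairs that named no gene stayed out. Without strand, a gene and an antisense partner cannot be told apart. Groups came from the labels. Counts were tested with edgeR 4.0.16 (R 4.3.3): TMM scaling, filterByExpr with a minimum count of 10 and a total of 15, robust quasi-likelihood fits, Benjamini-Hochberg adjustment over all genes tested, called at an adjusted p under 0.05 and a 1.5-fold change. Each hour and label was fitted apart. Averages used all libraries of a label, and times in culture its vehicle libraries. Alternatives were RLE scaling, no filter, DESeq2 1.42.0, no fold limit, a covariate (the share of uniquely mapped pairs on no annotated feature), joint fits and libraries left out. The tests were checked on simulated data. The 9 members and the lists were chosen with earlier results of these data known. Beside the members, the text names by rule the at most 4 genes of a list with the highest mean CPM and the 3 genes most like a member (r over group means, genes of at least 1 CPM); other genes were named after their values were seen. A change in a few abundant genes moves the CPM of all others. RefSeq promoters carry build GRCm38.p6. The result of 1 gene of the lists is not reported here.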

Additional observations from a re-analysis of the deposited data

Results flagged for a closer look

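In 28 of the 324 sets of 4 libraries (9 genes in 36 groups), 1 library lay far from the other 3 by Dixon's 95% criterion, in 21 libraries in all. Chance gives about 1 in 20 such sets, and no cause was tested.

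Of the 28, 5 were in the 2 libraries whose profile went against their hour label. In vehicle replicate 4 at 4 h (PkmΔDRE label) Igf1 was 48.02 CPM beside 312 to 356 in the other 3 and Igfbp3 was 178 CPM beside 3.37 to 7.40. In vehicle replicate 4 at 96 h (PkmΔDRE label) Igf1 was 407 CPM beside 32.02 to 45.3, Igfbp2 534 CPM beside 5.24 to 10.1, and Igfals 65.7 CPM beside 5.28 to 13.3. The 96 h library was thus high for 3 genes that are high early in culture, and the 4 h library low for Igf1, which is low late.

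For the binding proteins in libraries labelled WT, Igfbp1 was 2113 CPM in vehicle replicate 2 at 2 h (others 1234 to 1268), 1936 CPM in TCDD replicate 2 at 2 h (1150 to 1256) and 527.6 CPM in TCDD replicate 3 at 120 h (283.6 to 309.2). Igfbp2 was 49.2 CPM in vehicle replicate 3 at 48 h (9.49 to 15.1) and 11.1 CPM in vehicle replicate 3 at 72 h (3.68 to 4.23). Igfbp3 was 22.8 CPM in vehicle replicate 3 at 12 h (4.58 to 5.32) and 25.9 CPM in TCDD replicate 3 at 12 h (3.64 to 4.57), and 66.5 CPM in TCDD replicate 3 at 120 h (38.7 to 43.2). Igfbp4 was 544.1 CPM in vehicle replicate 3 at 24 h (730.9 to 764.6). In the PkmΔDRE label, Igfbp1 was 257.4 CPM in TCDD replicate 2 at 120 h (442.2 to 458.4), Igfbp3 1.62 CPM in vehicle replicate 3 at 2 h (5.69 to 6.52) and 5.23 CPM in vehicle replicate 2 at 8 h (3.07 to 3.24), and Igfbp4 399.4 CPM in vehicle replicate 2 at 48 h (758.6 to 819.8).

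For the receptor arm, Ghr was 135.4 CPM in TCDD replicate 4 of the WT label at 4 h (others 239.3 to 256.7), 72.8 CPM in TCDD replicate 1 of that label at 48 h (36.7 to 41.2) and 95.7 CPM in vehicle replicate 2 of the PkmΔDRE label at 48 h (32.1 to 32.9). In the 48 h TCDD replicate 1 of the WT label Socs2 was also apart, at 0.412 CPM (3.34 to 3.49), and in TCDD replicate 3 of the WT label at 120 h Stat5b was, at 71.1 CPM (55.3 to 56.3). Igf1 was 223.9 CPM in vehicle replicate 2 at 12 h (191.6 to 193.5) and 12.1 CPM in TCDD replicate 1 at 96 h (9.36 to 9.71) of the WT label, and 419 CPM in vehicle replicate 2 of the PkmΔDRE label at 2 h (525.7 to 528). Igfals was 184.4 CPM in TCDD replicate 4 of the WT label at 2 h (56 to 74.8), a library whose Cyp1a1 went against its treatment label, and 55.5 CPM in vehicle replicate 4 of the PkmΔDRE label at 8 h (31.5 to 34.2).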

How the results depend on the processing

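No result changed direction. Of 66 called member results, 393 of 425 values under alternatives other than leaving out 1 library or number stayed past the threshold and 32 did not, and with 1 library or number left out 71 of 320 did not. The 425 include 66 values with no fold limit. These keep the main fit, so that they could neither lose a call nor change direction. Counts of member calls that moved by over 1.5 times were the following, and the cause was not tested. For TCDD at each hour in libraries labelled WT (9 calls), 1 fit of all libraries of the label gave 5. For TCDD at each hour in those labelled PkmΔDRE (3 calls), DESeq2 gave 7, no filter 5, the share of pairs on no annotated feature as a covariate 6 and leaving out its 2 doubted libraries gave 6. For the 9-hour average in those labelled PkmΔDRE (3 calls), no filter and leaving out the 2 doubted libraries gave 1 each, and for the late average (2 calls) the latter gave 4. For the label difference in vehicle (2 calls), 1 fit of all libraries, DESeq2 and the covariate gave 5 each. Leaving out 1 library or number gave 7 to 10 calls for TCDD at each hour in the WT label, 1 to 6 in the PkmΔDRE label, 3 to 4 and 1 to 1 for the 9-hour averages, 2 to 3 and 2 to 2 for the late averages, 0 to 4 for the label difference, 0 to 0 for the interactions, and 18 to 21 and 14 to 20 for time in culture. Leaving out these 2, and these with the 4 doubted libraries of the WT label, was chosen after seeing the data. So was the order of library numbers as a replicate block, since the labels give no replicate numbers: over 72 vehicle and TCDD pairs in the same place, 51 correlated above 0.1 (median 0.256, lowest -0.308) and 36 of 72 TCDD libraries correlated best with their own pair, a hint of pairing from the data that the labels do not give and that not every pair shows. The block gave 15 calls at single hours in the WT label, 6 in the PkmΔDRE label and 1 for the 9-hour average there. Of all genes it called 40.7% at 8 h, 16.6% at 96 h and 4.25% at 24 h in the WT label. The main fits called 37.4%, 15.1% and 0.373% there. In the PkmΔDRE label it called 14.9% at 2 h and 11.5% at 12 h (main fits 0% and 0.024%), and 0% at 96 h (0.0793%). Without the 2 doubted libraries of that label, 2.25% were called at 96 h, 2.19% over 9 hours and 4.37% over the late hours. Depth limits Igfbp2, Igfbp3 and Socs2 where they lie at a few CPM, and likewise Htra1, Stc2, Acot3 and late Pck1.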

Other observations

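At 24 h in the PkmΔDRE label, Igfbp3 and Igf1 differed between replicates 1 and 2 and replicates 3 and 4 in both treatments. Igfbp3 was 0.870 and 4.32 CPM in vehicle replicates 1 and 2 and 174.5 and 219.8 CPM in vehicle replicates 3 and 4. With TCDD it was 2.77 and 1.94 CPM in TCDD replicates 1 and 2 and 94.3 and 134.6 CPM in TCDD replicates 3 and 4. Igf1 followed the same split, at 103.1 and 100.5 CPM against 239 and 233 CPM in vehicle and at 106.5 and 103.3 CPM against 212 and 189 CPM with TCDD. Igfbp1 did not, lying between 109.7 and 148 CPM in the 4 vehicle libraries. Libraries with low Igfbp3 thus also had low Igf1, the reverse of the course over the hours, in which Igf1 fell while Igfbp3 rose. In counts over all genes the vehicle libraries did not part this way, replicates 2 and 3 being the closest pair. The share of unmapped pairs was 7.59 and 7.345% in TCDD replicates 1 and 2 and 2.77 and 3.81% in TCDD replicates 3 and 4. In vehicle it lay between 6.39 and 7.08%. The labels give no batch that separates these libraries, and the cause was not tested.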
